A study of Rattus norvegicus with 20 samples.

Results

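The genes of the NRF2 oxidative stress response were followed in foetal rat testes after exposure of the dams to a plasticizer or a related compound. The 9 genes were Nfe2l2, Nqo1, Hmox1, Gclc, Gclm, Txnrd1, Prdx1, Sod1 and Sod2, and they were found by the gene name that the array files give each probe. They had 13 probes of the 41012 on the array, which carries 35737 gene names: 4 probes for Txnrd1, 2 for Sod1 and 1 for each of the others. Pregnant Han Wistar rats had been given DEHP, MEHP, TOTM or EHO in corn oil, or corn oil alone (Control), by gavage at 500 mg/kg on each of gestation days 12 to 19. Testes were pooled within a litter from at least 3 pups (6 testes), and each of the 5 groups had 4 one-colour Agilent arrays. DEHP is the 2-ethylhexyl diester of phthalic acid, MEHP its monoester, and TOTM the 2-ethylhexyl triester of trimellitic acid, while EHO is known here by its label. Doses were equal by mass and therefore not by mole, there was 1 dose and 1 time point, and the foetuses were exposed through the dam.

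NRF2, the protein of Nfe2l2, is a transcription factor that the adaptor KEAP1 holds in the cytoplasm and hands over for degradation. Oxidants and electrophiles modify KEAP1, after which NRF2 accumulates, enters the nucleus, pairs with a small MAF protein and binds antioxidant response elements near genes for glutathione synthesis, quinone reduction and the thioredoxin system. In the testis, steroid synthesis in Leydig cell mitochondria is a source of reactive oxygen, and germ cells are sensitive to it. Because NRF2 is controlled largely through its protein, the Nfe2l2 transcript level is not a measure of its activity.

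The promoter windows of the genes are given first because the antioxidant response element is the sequence through which NRF2 acts. Windows of 300 bases, with 250 before and 50 after the start of the gene, came from RefSeq's annotation of the GRCr8 assembly. They were held for 8 of the 9 genes, in 9 windows because Txnrd1 had 2, and Hmox1 was the gene with none. The core letters TGACNNNGC, searched on both strands, were in at least 1 window of 5 genes (Nfe2l2, Gclm, Txnrd1, Prdx1 and Sod2), and 4038 of all 33469 windows held them (12.1%). In the sequences that follow, read 5′ to 3′ on the strand of the gene, capitals mark the match.
Nfe2l2, chr3:81028950-81028971, minus strand: gactagccatTGACGCCGCctc
Gclm, chr2:213031937-213031997, plus strand: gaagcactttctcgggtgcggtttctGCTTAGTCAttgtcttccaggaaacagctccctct
Txnrd1, chr7:22755905-22756154, minus strand: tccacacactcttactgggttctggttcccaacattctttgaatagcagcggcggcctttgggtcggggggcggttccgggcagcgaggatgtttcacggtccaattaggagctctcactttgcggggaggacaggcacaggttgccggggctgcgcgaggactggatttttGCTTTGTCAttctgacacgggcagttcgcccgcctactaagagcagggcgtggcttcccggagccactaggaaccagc
Prdx1, chr5:135383656-135383905, plus strand: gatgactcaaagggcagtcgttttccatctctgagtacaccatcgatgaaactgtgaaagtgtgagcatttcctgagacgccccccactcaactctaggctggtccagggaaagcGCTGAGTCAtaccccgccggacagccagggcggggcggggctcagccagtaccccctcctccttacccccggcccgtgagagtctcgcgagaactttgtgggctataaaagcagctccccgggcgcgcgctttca
Sod2, chr1:50050169-50050229, minus strand: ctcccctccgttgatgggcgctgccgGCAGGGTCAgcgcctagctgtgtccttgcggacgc

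The match began 38 bases after the start site in Nfe2l2, where it lies on the strand of the gene. It lay on the opposite strand before the start site in the other 4 genes, at 164 bases in Gclm, 127 in Prdx1, 70 in Txnrd1 and 27 in Sod2. The Prdx1 match overlaps TGAGTCA, the binding letters of AP-1 factors, which were present with their reverse complement TGACTCA at 2 places in that window and in 1550 of all windows (4.63%); 296 windows held both motifs. No match was present in the windows of Nqo1, Gclc and Sod1, which says only that these letters are not in those bases. The windows were rich in G and C, from 56.3% in Nqo1 to 76.7% in Gclc, apart from 43.7% in the Txnrd1 window with no match, so a match by letters alone is a description of sequence and not of a site in use.

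Levels are given as the log2 of the background-subtracted signal minus the 75th percentile of that array, so 0 is the level of that percentile, and a difference of 1 is a factor of 2. Levels of different probes cannot be ranked against each other. Spots well above background made up 46.1% to 63.5% of an array in the EHO group and 63.9% to 79.8% in the others. Each of the 5 slides held 1 group, and the effects of slide and group cannot be told apart. MEHP arrays 1 and 2 differed by 0.784 times the noise between repeated spots, where the median pair of arrays of the same group differed by 2.30 times, and they were averaged to 1 sample (MEHP n = 3). MEHP array 3 was also close to Control array 2 (1.29 times the noise) and DEHP array 3 to MEHP array 4 (1.37 times), although these are labelled as different groups. On the Control arrays 90.8% to 94.7% of the brightest 1% of spots were marked by the scanner software as non-uniform or as population outliers. The share was at most 0.922% on the other arrays, and marked spots were left out. Because the RNA came from whole testes, fewer cells of a type and less RNA per cell cannot be told apart, and a p-value reflects nothing but the scatter among the pools.

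Of the 13 probes, 11 were well above background often enough to be tested, and they covered 7 genes. With the brightest probe for each gene, only Sod2 differed between any pair of groups at a Benjamini-Hochberg adjusted p under 0.05 (limma), between EHO and TOTM, and 0 passed against Control in any compound; of the other probes, one named Txnrd1 passed and is described further on. Prdx1 for TOTM and Nqo1 for EHO were at an unadjusted p under 0.05 against Control. Nqo1 was tested only because all its Control spots were well above background, so its p is not support for a lower level in EHO. Nfe2l2, Hmox1, Txnrd1, Prdx1 and Sod1 were well above background on every array, Nqo1 and Sod2 were so on some arrays, and Gclc and Gclm were not on any of the 20.

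**Figure D1:**
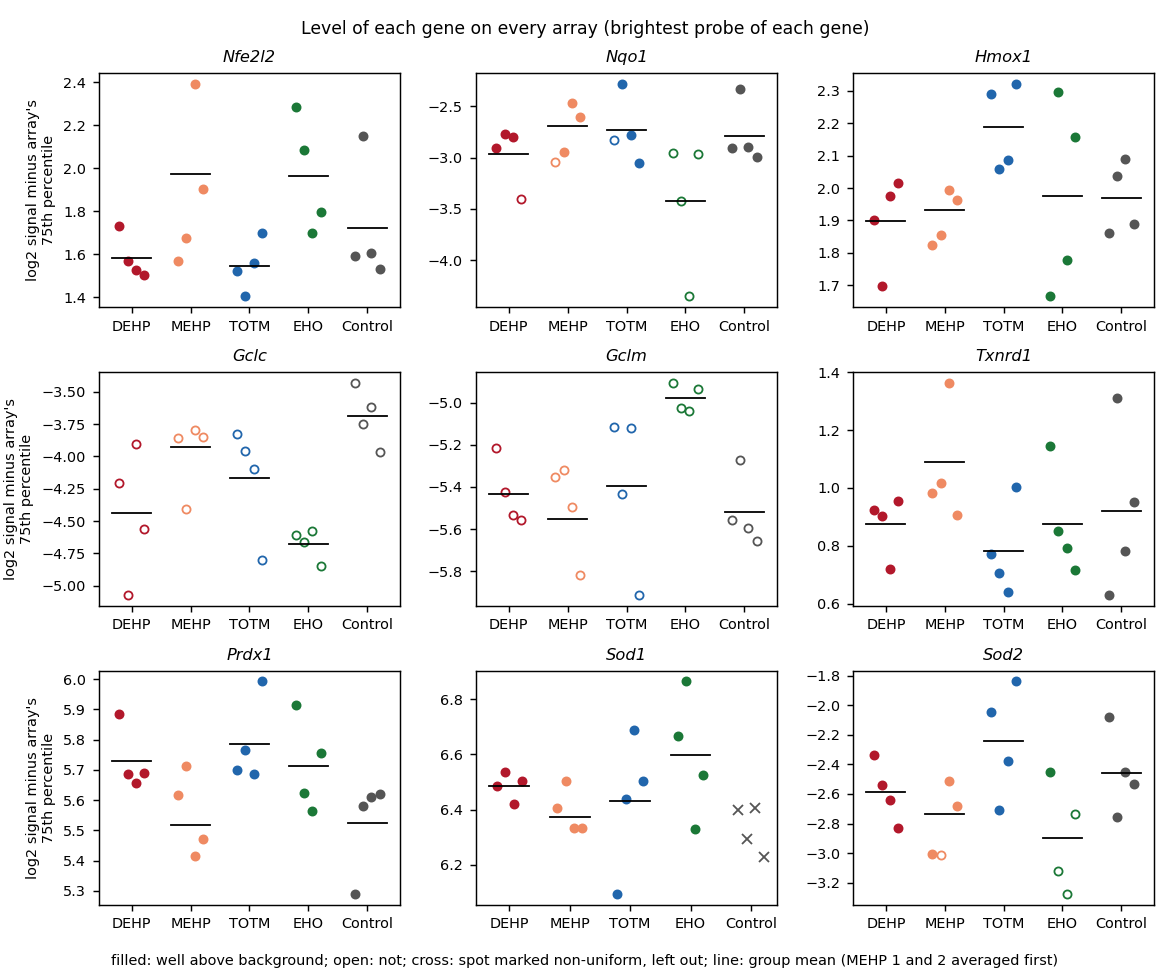
Levels of the 9 genes on each array, as log2 signal minus the array's 75th percentile, in the DEHP, MEHP, TOTM, EHO and Control groups, with the brightest probe of each gene. Filled points are well above background and open points are not, crosses are spots marked as non-uniform and left out of the tests, and black lines are group means. For Nfe2l2, Nqo1, Hmox1 and Sod2 the 4 Control arrays lie inside the range of the compound groups, the EHO points for Nqo1 are all open, and the Control points for Sod1 are all crosses.

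The probe for Nfe2l2, which encodes NRF2 itself, lies at chr3:58366802-58366861 on the minus strand of the rn4 build named in the file headers. Its level was 1.73, 1.57, 1.53 and 1.50 on the DEHP arrays, 1.57, 1.67, 2.39 and 1.90 on the MEHP arrays, 1.52, 1.41, 1.56 and 1.70 on the TOTM arrays, 2.28, 2.08, 1.70 and 1.80 on the EHO arrays, and 1.59, 2.15, 1.61 and 1.53 on the Control arrays. All 5 groups overlapped, and 1 Control array stood above the other 3. The means were 1.58 ± 0.10 in DEHP, 1.97 ± 0.39 in MEHP (SD, n = 3), 1.55 ± 0.12 in TOTM, 1.97 ± 0.27 in EHO and 1.72 ± 0.29 in Control (n = 4 each), so MEHP and EHO lay above Control and DEHP and TOTM below it. Set against Control, DEHP differed by −0.14, MEHP by 0.25, TOTM by −0.17 and EHO by 0.24, with standard errors of 0.17 to 0.19, and none passed (limma, adjusted p 0.282 to 1.0). The pooled SD within groups was 0.25, and neighbours in the order of the means lay within it of each other.

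Nqo1 encodes the quinone reductase whose transcript is a widely used readout of NRF2, and its probe lies at chr19:37256979-37257038 on the minus strand. Its level was −2.90, −2.77, −2.80 and −3.41 in DEHP, −3.04, −2.94, −2.47 and −2.61 in MEHP, −2.83, −2.28, −2.78 and −3.06 in TOTM, −2.95, −3.42, −4.35 and −2.96 in EHO, and −2.91, −2.34, −2.90 and −3.00 in Control. The spot was well above background on 3 arrays each in DEHP, MEHP and TOTM, on 0 of 4 in EHO and on 4 of 4 in Control, so the EHO group gives only an upper limit. In the other 3 compounds the differences from Control were −0.18 (DEHP), 0.09 (MEHP) and 0.05 (TOTM) with standard errors of 0.27 to 0.29, and the groups overlapped. The measured means were −3.42 ± 0.66 in EHO and −2.79 ± 0.30 in Control (SD, n = 4 each), for which limma gave a Benjamini-Hochberg adjusted p of 0.0823. Set against the lowest signal that counts as above background, no fold could be given for EHO against Control or DEHP. None is given against MEHP or TOTM, since MEHP array 1 and TOTM array 1 were also not well above background. On the measured signals limma gave EHO an adjusted p of 0.171 against MEHP and 0.0671 against TOTM.

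Hmox1 encodes haem oxygenase 1, which breaks down haem, and its 1 probe at chr19:13969336-13969395 (plus strand) was printed 10 times on each array and averaged. Its level was 1.90, 1.70, 1.97 and 2.02 in DEHP, 1.82, 1.86, 1.99 and 1.96 in MEHP, 2.29, 2.06, 2.09 and 2.32 in TOTM, 1.67, 2.30, 1.78 and 2.16 in EHO, and 1.86, 2.04, 2.09 and 1.89 in Control. The TOTM mean of 2.19 ± 0.14 was the highest of the 5, and the others were 1.90 ± 0.14 in DEHP, 1.93 ± 0.08 in MEHP, 1.97 ± 0.30 in EHO and 1.97 ± 0.11 in Control. Against Control the difference was 0.22 ± 0.13 (SE) for TOTM, with an adjusted p of 0.694 (limma), and −0.07, −0.04 and 0.01 for DEHP, MEHP and EHO. All 4 TOTM arrays were above all DEHP and all MEHP arrays, by 0.29 (limma, adjusted p = 1.0) and 0.26 (adjusted p = 0.448).

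Gclc and Gclm encode the catalytic and modifier subunits of glutamate-cysteine ligase, the first enzyme of glutathione synthesis. The Gclc probe (chr8:82761662-82761721, plus strand) read −3.80 to −5.07 on the arrays of the 4 compounds and −3.43, −3.75, −3.62 and −3.96 on the Control arrays. The Gclm probe (chr2:218915215-218915274, plus strand) had its highest group mean in EHO, −4.98, with the 4 EHO arrays between −4.91 and −5.04. Neither probe was well above background on any array, so these readings set only an upper limit on the level, and no fold or test is given.

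Txnrd1 encodes the cytosolic thioredoxin reductase, a selenoprotein that returns oxidised thioredoxin to its reduced form. Its brightest probe (A_44_P554454), at chr7:23056700-23056759 (minus strand), read 0.92, 0.90, 0.72 and 0.95 in DEHP, 0.98, 1.02, 1.36 and 0.91 in MEHP, 0.77, 0.71, 0.64 and 1.0 in TOTM, 1.15, 0.85, 0.79 and 0.71 in EHO, and 0.63, 1.31, 0.78 and 0.95 in Control. The groups overlapped throughout, with differences from Control of −0.04 (DEHP), 0.17 (MEHP), −0.14 (TOTM) and −0.04 (EHO) and standard errors of 0.15 to 0.16. MEHP had the highest mean at 1.09 ± 0.24, and TOTM the lowest at 0.78 ± 0.16.

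The other Txnrd1 probes did not all go the same way. The probe at chr7:23055528-23055561 (A_44_P134070) differed from Control by −0.02 in DEHP, 0.16 in MEHP, −0.05 in TOTM and 0.21 in EHO. The third (A_44_P456738), whose 2 ends lie at 23073062 and 23074940 and which therefore crosses an intron, read −0.40, −0.45, −0.58 and −0.75 in TOTM and −0.16, −0.13, −0.18 and −0.20 in Control. All TOTM arrays were below all Control arrays, with a difference of −0.37 ± 0.15 (SE; limma over every probe, adjusted p = 0.548). On that probe MEHP was also below Control without overlap (−0.25), while DEHP (−0.29) and EHO (−0.06) overlapped it.

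One more probe that carries the name Txnrd1, at chr7:23055604-23055663 (A_44_P427702), lies on the plus strand, opposite to the other 3, and was designed on an expressed sequence tag. It read −4.54, −3.56, −2.71 and −2.47 in EHO, where 0 of 4 spots were well above background, and −1.93, −2.99, −2.25 and −2.25 in Control, where 3 of 4 were. Tested among all probes it was called lower in EHO than in Control, with measured means of −3.32 and −2.36 (limma, adjusted p = 0.0479). No fold is given there, since Control array 2 was also not well above background. In TOTM all spots were well above background and read −2.06, −2.30, −2.36 and −2.69. Against these it was called lower in EHO (limma, adjusted p = 0.0496). With dimmer EHO readings raised to the lowest signal above background on their arrays, the group means differed 1.25-fold. EHO overlapped both groups, since EHO array 4 was above TOTM array 4 and Control array 2. The 3 probes on the gene's strand, with EHO differences from Control of −0.06 to 0.21, did not pass. With the brightest probe for each gene, 24.8% of all genes passed in EHO against Control and 21.6% in EHO against TOTM.

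Prdx1 encodes peroxiredoxin 1, which reduces hydrogen peroxide with electrons from thioredoxin, and its probe joins bases at chr5:136983425 and chr5:136984996 (plus strand) across an intron. Its level was 5.89, 5.69, 5.66 and 5.69 in DEHP, 5.62, 5.71, 5.42 and 5.47 in MEHP, 5.70, 5.77, 5.69 and 5.99 in TOTM, 5.91, 5.62, 5.56 and 5.75 in EHO, and 5.29, 5.58, 5.61 and 5.62 in Control. All DEHP and all TOTM arrays were above all Control arrays, and 1 Control array was below the other 3. The means were 5.73 ± 0.10 in DEHP, 5.52 ± 0.13 in MEHP, 5.79 ± 0.14 in TOTM, 5.71 ± 0.16 in EHO and 5.52 ± 0.16 in Control. The TOTM difference of 0.26 ± 0.11 (SE; 95% interval 0.02 to 0.50) had an adjusted p of 0.591 in limma. The differences were 0.20 for DEHP (95% interval −0.037 to 0.45), −0.0076 for MEHP (−0.27 to 0.25) and 0.19 for EHO (−0.052 to 0.43). Among the 6 genes whose brightest probe had Control values, Prdx1 was the one whose arrays in any compound did not overlap those of Control, and the largest of its differences from Control was 1.20-fold.

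Sod1 encodes the cytosolic copper and zinc superoxide dismutase, and its brighter probe is at chr11:29810826-29810885 (minus strand). It read 6.49, 6.54, 6.42 and 6.50 in DEHP, 6.40, 6.50, 6.33 and 6.33 in MEHP, 6.09, 6.44, 6.69 and 6.50 in TOTM, and 6.67, 6.86, 6.33 and 6.53 in EHO. Its spot carried the non-uniform mark on all 4 Control arrays, so it had no Control level. With the marked spots kept, Control read 6.40, 6.29, 6.41 and 6.23, and the differences were 0.15 (DEHP), 0.04 (MEHP), 0.10 (TOTM) and 0.26 (EHO; limma, adjusted p = 0.114), with all DEHP arrays above all Control arrays. The second Sod1 probe, whose ends lie at 29810963 and 29811970, had 3 usable Control spots at 6.07, 6.09 and 5.80, and its differences from them were 0.01, −0.16, −0.02 and 0.07 in DEHP, MEHP, TOTM and EHO. With marked spots kept on both probes, the second differed by 0.03, −0.14, 0.0036 and 0.09 in the same order, so the probes differ in sign for MEHP, and neither passed.

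**Figure D2:**
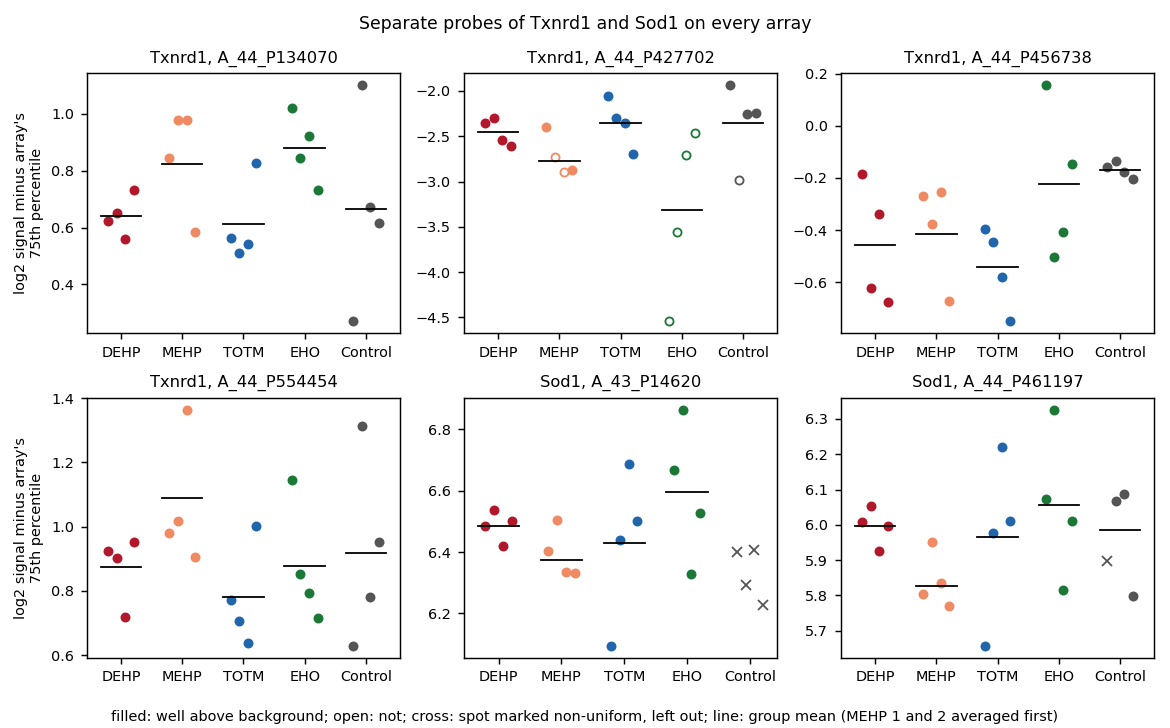
Level on every array of the 4 probes named Txnrd1 and the 2 of Sod1, as log2 signal minus the array's 75th percentile, by group; filled points are well above background, open points are not, crosses are spots marked as non-uniform and lines are group means. The plus-strand Txnrd1 probe (A_44_P427702) has 4 open EHO points, and on the intron-crossing one (A_44_P456738) all TOTM points lie under the Control points.

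Sod2 encodes the mitochondrial manganese superoxide dismutase, and its probe is at chr1:41862972-41863005 (minus strand). Its level was −2.34, −2.54, −2.64 and −2.83 in DEHP, −3.00, −3.01, −2.51 and −2.68 in MEHP, −2.05, −2.71, −2.38 and −1.84 in TOTM, −2.45, −3.12, −3.27 and −2.73 in EHO, and −2.08, −2.76, −2.45 and −2.54 in Control. The spot was well above background on 1 of 4 EHO arrays, 3 of 4 MEHP arrays and all others, so 3 of the EHO readings are only upper limits on the level. By measured signal EHO was the lowest group and TOTM the highest, and the 2 overlapped, since the highest EHO array was above the lowest TOTM array. Means of the measured signals were −2.90 ± 0.37 in EHO, −2.24 ± 0.38 in TOTM and −2.46 ± 0.28 in Control, and no compound passed against Control in limma, with differences of −0.13 in DEHP, −0.28 in MEHP, 0.21 in TOTM and −0.44 in EHO (adjusted p = 0.118).

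Counted against Control, the genes lay on both sides of the Control level in each compound. With DEHP, 1 of 6 genes was higher and 5 were lower (median −0.10, against −0.03 over all genes), with MEHP 3 were higher and 3 lower (0.04 against −0.06), with TOTM 4 and 2 (0.13 against −0.04), and with EHO 3 and 3 (−0.02 against −0.18). The numbers passing at an adjusted p under 0.05 in limma were 0 of 6 in each, where 0.00418% of all 23897 genes passed with DEHP, 0.946% with MEHP, 0.00837% with TOTM and 24.8% with EHO. At an unadjusted p under 0.05 there were 0 of 6 for DEHP (2.47% of all genes), 0 for MEHP (5.32%), 1 for TOTM (Prdx1; 8.21%) and 1 for EHO (Nqo1; 45.6%). Nqo1 had entered the tests only through its Control spots. Groups that did not overlap were found for 1 of 6 genes with DEHP (Prdx1; 2.92% of all genes), 0 with MEHP (10.3%), 1 with TOTM (Prdx1; 7.23%) and 0 with EHO (13.4%). The 4 comparisons share the Control arrays, so their values for a gene are not independent of each other. A p that misses the threshold does not show that a level was the same.

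**Figure D3:**
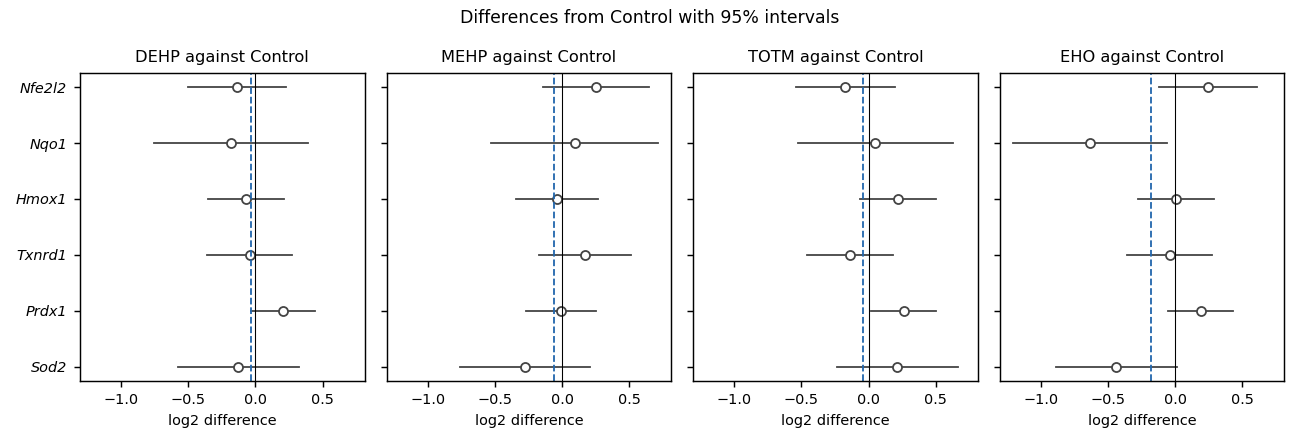
Differences of each compound from Control for the 6 genes with Control values, in log2 units with 95% confidence intervals; the blue dashed line is the median of all genes tested. Every interval is that of a difference with an adjusted p above 0.05, and the EHO panel has its dashed line at −0.18; Nqo1 was not well above background on the EHO arrays.

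The compounds were then set against each other at the same dose by mass and the same time. There were 6 pairs, each with 7 genes tested among 24217, and p-values were also adjusted over all genes and all 6 pairs together. MEHP, which lacks one of the ester arms of DEHP, had 0 of 7 genes past the threshold in limma against DEHP (1.12% of all genes), 0 at an unadjusted p under 0.05 (5.57%) and 0 with groups that did not overlap (14.5%). The largest difference was in Nfe2l2, 0.39 (95% interval −0.0061 to 0.79; limma, adjusted p = 0.906 within the pair and 0.236 over the pairs), and the smallest was 0.03 in Hmox1 (−0.27 to 0.34). The median over the genes was 0.03, beside −0.05 for all genes.

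TOTM, with a further ester arm on its ring compared with DEHP, had 0 of 7 genes past the threshold in limma (0% of all genes), 1 at an unadjusted p under 0.05 (3.01%) and the same 1 without overlap (4.81%). That gene was Hmox1, at 0.29 (95% interval 0.0086 to 0.57; limma, 0.215 adjusted over the pairs). The intervals of the other 6 genes all included 0, the narrowest being Prdx1 at 0.06 (−0.18 to 0.30). TOTM against MEHP had 0 of 7 past the threshold (1.52%), 3 at an unadjusted p under 0.05 (13.9%) and 2 without overlap (20.1%). Nfe2l2 was −0.43 (95% interval −0.82 to −0.030), Prdx1 0.27 (0.0082 to 0.53) and Sod2 0.49 (0.0024 to 0.98), with adjusted p of 0.319, 0.341 and 0.357 in limma and of 0.197, 0.214 and 0.226 over the pairs. The genes without overlap were Hmox1 and Prdx1, both higher in TOTM, with MEHP arrays 1 and 2 averaged.

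EHO against DEHP had 0 of 7 past the threshold in limma (6.62% of all genes), 1 at an unadjusted p under 0.05 (Nfe2l2, at 0.38 with a 95% interval of 0.016 to 0.75; 38.3%) and 0 without overlap (14%). EHO against MEHP had 0 of 7 (0.281%), 1 at an unadjusted p under 0.05 (Nqo1; 23.8%) and 0 without overlap (11.9%). EHO against TOTM had 1 of 7 past the threshold (21.6%), 3 at an unadjusted p under 0.05 (Sod2, Nqo1 and Nfe2l2; 46.5%) and 0 without overlap (19.3%). The passing gene was Sod2, which was called lower in EHO, as 13.3% of all genes were, and the median of all genes was −0.19. Sod2 had a difference in measured signal of −0.65 ± 0.21 (SE; 95% interval −1.10 to −0.20) and a Benjamini-Hochberg adjusted p of 0.0425 in limma. Since 3 of the 4 EHO readings of Sod2 were not well above background, that difference is not a measured fold. Adjusted over all pairs its p was 0.107, and it passed in 18 of 35 alternative treatments of the data. It did not pass without EHO arrays 1 and 2 (−0.76), with quantile normalization (−0.16) or with median scaling (−0.18). It was also lost without TOTM array 1, 3 or 4 or EHO array 2 or 3, and, with the difference itself as it was, without DEHP array 2 or 3, MEHP array 4 or Control array 3 or 4. Nfe2l2 was higher in EHO than in TOTM by 0.42 (95% interval 0.052 to 0.79; limma, adjusted p = 0.0746). In this pair, as in the others, the share of the 7 genes that passed did not exceed that of all genes.

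**Figure D4:**
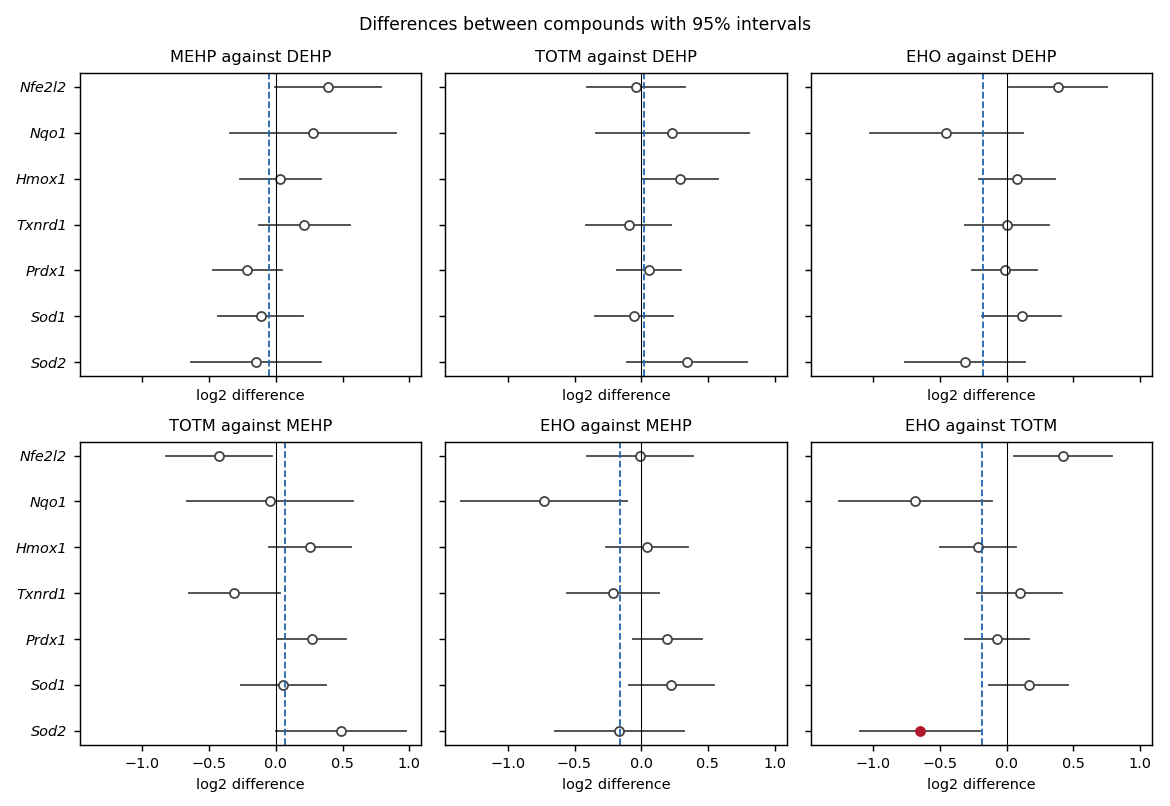
Differences between the 6 pairs of compounds for the 7 genes, in log2 units with 95% confidence intervals, first-named compound minus second; the blue dashed line is the median of all genes. Filled red marks an adjusted p under 0.05, which only Sod2 reached, at −0.65 in EHO against TOTM. The Nqo1 differences with EHO rest on EHO signals that were not well above background.

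In the authors' deposited table, which lists only probes with p up to 0.00999 for each compound against Control, 8 entries belong to these genes. The authors' deposited table gives Sod1 (the brighter probe) as 1.24 with DEHP (p = 2.11e-09), 1.20 with MEHP (p = 2e-04), 1.26 with TOTM (p = 0.00126) and 1.29 in a block headed EH (p = 2.48e-05), which was taken for the EHO samples. These are the spots marked as non-uniform on the Control arrays. Also in the authors' deposited table, Hmox1 is −1.10 with MEHP (p = 9.66e-05) and 1.17 with TOTM (p = 0.00016), Prdx1 is 1.27 with TOTM (p = 0.00381), and the intron-crossing Txnrd1 probe is −1.27 with TOTM (p = 5.35e-07). The signed folds share their signs with the limma differences (for Sod1, those with the marked spots kept), and the p-values of the authors' deposited table are smaller. In the authors' deposited table the blocks are 1004 probes long under DEHP, 3827 under MEHP, 3298 under TOTM and 4210 under EH.

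Other genes of the pathway were taken from 7 lists with 54 members, of which 51 were on the array, 48 passed the filter on dim probes and 46 also had Control values. Keap1, which encodes the repressor of NRF2, averaged 0.76 in DEHP, 0.48 in MEHP, 0.76 in TOTM, 0.71 in EHO and 0.60 in Control, and its differences from Control of −0.12 to 0.16 did not pass. Srxn1, which encodes sulfiredoxin, a direct target of NRF2, was −0.19, −0.26 and −0.17 from Control in DEHP, MEHP and TOTM, and −0.45 in EHO (limma, adjusted p = 0.0948). Cat, which encodes catalase, was −0.12, −0.07, −0.17 and −0.19 from Control in DEHP, MEHP, TOTM and EHO. Of the 46 genes, 0 passed in limma in either direction against Control with DEHP, MEHP or TOTM, and 0, 0 and 2 of them had an unadjusted p under 0.05. For MEHP, array weights gave 1 higher and 2 lower.

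With EHO, 3 of the 46 were called higher and 0 lower against Control, while 6.45% of all genes were called higher and 18.3% lower. By sign alone, 16 of the 46 lay below Control. Txn1, which encodes thioredoxin itself, averaged 5.18 in EHO and 4.69 in Control, a difference of 0.49 ± 0.17 (SE; limma, adjusted p = 0.0457) with overlapping groups. Prdx6, a peroxiredoxin that also acts on phospholipids, averaged 1.94 in EHO and 1.61 in Control (0.32 ± 0.10; limma, adjusted p = 0.0377). Abcc1, an export pump for glutathione conjugates, averaged 2.23 in EHO and 1.71 in Control (0.52 ± 0.16; limma, adjusted p = 0.0362). The EHO and Control groups did not overlap for 5 of the 46 (13.4% of all genes), with Prdx6 and Abcc1 above Control and Prdx3, Sod3 and Ephx1 below it. The last 3, named after their values were seen, differed by −0.47, −0.41 and −0.59 and did not pass (limma, adjusted p 0.0592 to 0.139). By list, 2 of 11 thioredoxin and peroxiredoxin genes and 1 of 8 detoxification genes passed, and 0 passed of the 8 regulators, 8 glutathione genes, 3 genes for removal of superoxide and hydrogen peroxide, 4 haem and iron genes and 4 NADPH genes. The median over the 46 was 0.10, beside −0.18 for all genes. The count was 0 without EHO arrays 1 and 2 (Txn1 0.28, Prdx6 0.37 and Abcc1 0.49), and also without EHO array 1, Control array 1 or Control array 4, or when only these 2 groups were fitted. It was 18 higher with median scaling, under which the median of all genes moved to 0.35, and 17 lower with the percentile taken over probes above background on every array, under which it moved to −0.47. Unlike the other scalings, that percentile was taken after marked spots were left out, and most of the brightest Control spots carried the mark. Under it the median of all genes against Control also moved to −0.25 in DEHP, −0.29 in MEHP and −0.21 in TOTM. Quantile normalization gave 2 higher and 4 lower, or 2 and 5 with normexp background correction as well. There were 4 higher and 3 lower without EHO array 3, 3 and 4 without EHO array 4, and 0 of either with array weights.

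**Figure D5:**
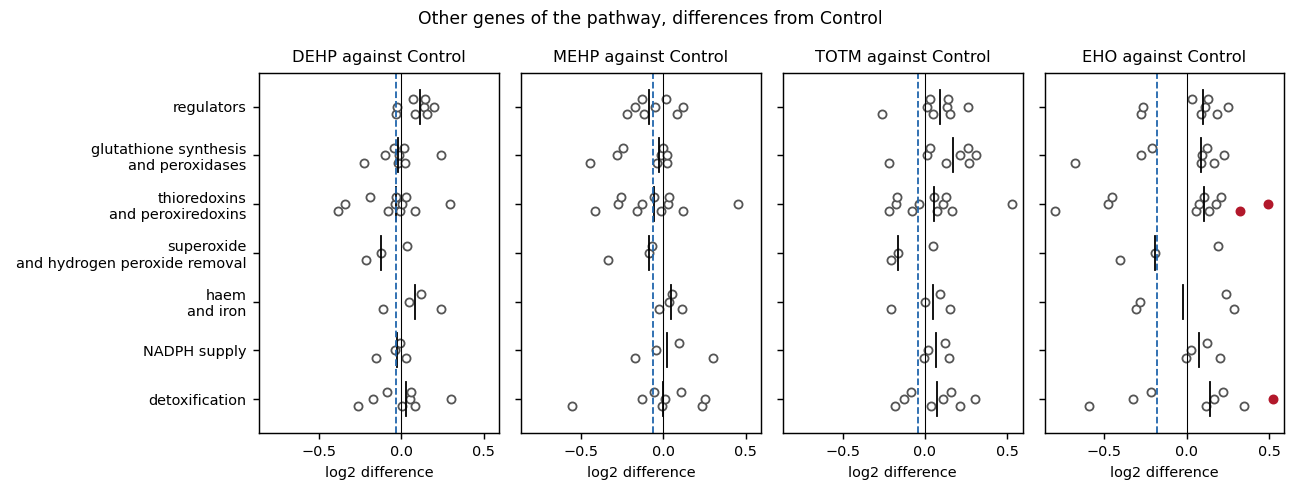
Differences from Control of the 46 other pathway genes in each compound, by list, in log2 units; each point is a gene, the short black bar is the list's median, the blue dashed line is the median of all genes tested and filled red marks an adjusted p under 0.05. The filled points are Txn1, Prdx6 and Abcc1 in EHO, between 0.32 and 0.52, and the other 3 compounds have none.

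Against TOTM, 3 of 48 pathway genes were called higher in EHO (8.33% of all genes) and 1 was called lower (13.3%). By sign alone, 27 of the 48 were lower in EHO. Txn1 rose by 0.67 (limma, adjusted p = 0.0168), Abcc1 by 0.65 (adjusted p = 0.0149) and Gpx1, which encodes the cytosolic glutathione peroxidase, by 0.44 (adjusted p = 0.0426), in each case without overlap (19.3% of all genes, either way). Ggt1, which encodes the gamma-glutamyl transferase that breaks down extracellular glutathione, was the gene called lower. Its measured signal averaged −3.11 in EHO and −2.17 in TOTM (limma, adjusted p = 0.0397), but 3 of the 4 EHO readings were not well above background and give only upper limits, so no fold is given. With EHO arrays 1 and 2 left out none of these 4 passed (limma, adjusted p 0.10 to 0.562), and the genes that did were Nqo2, higher by 0.43, and Mafk, lower with −0.58, both named after their values were seen. The other 5 pairs of compounds gave 0 passing pathway genes in limma. At an unadjusted p under 0.05 there was 1 of 48 in MEHP against DEHP (5.57% of all genes), 3 in TOTM against DEHP (3.01%), 14 in EHO against DEHP (38.3%), 8 in TOTM against MEHP (13.9%) and 10 in EHO against MEHP (23.8%). Only in TOTM against DEHP did the count of 0 hold under each alternative, and the changes given for the others are examples. Array weights gave 9 higher and 2 lower in TOTM against MEHP, and 1 higher and 1 lower in MEHP against DEHP. In EHO against MEHP there were 2 higher and 1 lower without EHO array 4. In EHO against DEHP there were 5 higher with median scaling, and 3 higher and 2 lower with quantile normalization. The same pair gave 1 higher and 2 lower without EHO array 2, 5 and 1 without EHO array 3, and 4 and 4 without EHO array 4.

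The summed levels of cell type markers also varied between these groups. The summed level of the peritubular and interstitial markers (4 of 5 passed the filter, and Acta2 is not on the array) was 4.65 to 5.14 in EHO, 3.74 to 4.32 in TOTM and 4.10 to 4.68 in Control. The endothelial sum (3 of 4, with Tek above background on 0 arrays) was 4.02 to 4.80 in EHO, 3.35 to 3.87 in TOTM and 3.49 to 4.37 in Control, and the erythroid sum (6 of 9) was 4.63 to 5.92 in EHO, 3.87 to 4.69 in TOTM and 4.22 to 4.72 in Control. The Sertoli sum (7 of 7), which marks the labelled tissue, was 6.63 to 7.04 in EHO, 6.93 to 7.25 in TOTM and 6.80 to 6.99 in Control. Foetal Leydig markers, with 4 of the 6 measured on all arrays, summed to 5.03 to 5.72 in EHO, 5.66 to 6.09 in TOTM and 5.75 to 6.08 in Control. The gonocyte sum (5 of 6) was 3.15 to 3.55 in EHO, 3.47 to 3.58 in TOTM and 3.25 to 3.38 in Control, and the macrophage and leukocyte sum (7 of 8) was 2.53 to 3.65, 2.54 to 2.84 and 2.75 to 3.04 in the same order. The foetal Leydig sum was 5.03 to 5.43 in DEHP and 3.61 to 6.00 in MEHP, so it was below Control without overlap in DEHP and EHO and had its widest range in MEHP. That sum left out Cyp17a1, which had no Control value, and Insl3, which averaged 5.53 in EHO, 5.21 in DEHP and 5.48 in Control. The adrenal cortex level (1 of 3, Cyp11b1) was −1.73 to −0.46 in EHO, −0.027 to 0.88 in TOTM and −0.62 to 0.49 in Control. The mesonephric duct sum (2 of 3) was −0.74 to −0.22, −0.98 to −0.51 and −0.90 to −0.43 in the same order. All 4 peritubular and interstitial markers had higher means in EHO than in TOTM. Among the erythroid markers Alas2, Slc4a1 and Hbb averaged higher in EHO than in Control, and Hemgn, Klf1 and Epor averaged lower. The endothelial sum is mostly that of Kdr (4.29 in EHO and 3.48 in TOTM), while Pecam1 averaged −3.27 in EHO, with 2 of 4 spots well above background, and −2.29 in TOTM, and Cdh5 −1.53 in EHO and −1.49 in TOTM. The part of these cells in the differences of Txn1, Prdx6, Abcc1, Gpx1 and Sod2 was not tested.

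Sod1 lacked Control values, and among the other 4 genes well above background on all arrays Nfe2l2 and Txnrd1 varied most over the 19 samples, with SDs of 0.28 and 0.21, beside 0.19 for Hmox1 and 0.17 for Prdx1. The level most like that of Nfe2l2, by the root mean square difference of deviations from each gene's own mean among 4779 genes, was that of Tnfrsf1a (0.0926). The nearest to Txnrd1 were Smc3, which the array names Cspg6 (0.0789), and Ccna2 (0.0889). All of these values come from the same 19 samples, which share slides within groups.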

How the data were processed

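Total RNA from pooled foetal testes was hybridised to 20 one-colour Agilent whole rat genome arrays, 4 for each of 5 groups. The deposited intensity values are the scanner software's processed signals, made per the file headers with Agilent Feature Extraction 9.5.3.1 (9.5 per the submitters' processing notes) on a design with rn4 coordinates: background was subtracted with spatial and multiplicative detrending, and no scaling between arrays is recorded. The authors also deposited a table of signed fold scores and p-values per compound, whose test is not given in the sources used here. Whether a spot was well above background, and whether it was marked non-uniform or a population outlier, are the software's calls in the deposited files.

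Of 45018 spots, 1639 control spots were left out, and each array was set to its 75th percentile over all other spots on the log2 scale. Spots marked as outliers were left out of the values, repeated spots averaged, and probes were kept where all arrays of some group had them well above background (28133 probes). The brightest probe stood for a gene, giving 24217 genes, 23897 of them with Control values. MEHP arrays 1 and 2, which differed by less than the spot noise, were counted as 1 sample. One linear model over the 5 groups was fitted with limma 3.58.1 in R 4.3.3 (with the package data.table, version 1.17.8; 14 residual and 2.53 prior degrees of freedom), with Benjamini-Hochberg adjustment over all genes at 0.05. It was tested on simulated data with known changes. The alternatives were other scalings, background correction with normexp (offset 50), other filters, spots marked as outliers kept, every probe by itself, array weights, another variance model, the replicate number as a block, arrays of 2 groups alone, doubted arrays left out and each array left out in turn.

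The 9 genes and the gene lists were chosen with earlier results of these data known. Named from the pathway lists was every gene past the threshold, at most 3 each way per comparison by size, and a few genes for the role they are known for (Keap1, Srxn1 and Cat), chosen after their values were seen. For the 2 genes with the largest SD among those above background on all arrays, the 2 genes with the nearest pattern were named, apart from 1 that is not reported here. Array symbols were updated through RefSeq accessions where they matched, for 6745 genes. The number of arrays limits the precision, and no depth applies to arrays.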

Additional observations from a re-analysis of the deposited data

Results flagged for a closer look

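In 5 of the 50 groups of 4 arrays that could be examined, 1 array lay far from the other 3, with a gap that is a larger part of the group's range than Dixon's 95% critical value allows; chance alone flags about 1 group in 20. TOTM array 4 read 0.83 on the Txnrd1 probe at chr7:23055528-23055561, where the nearest TOTM array read 0.56. DEHP array 1 read 5.89 for Prdx1, where the nearest read 5.69. The other 3 were Control arrays, 2 of them the same array. Control array 2 read 2.15 for Nfe2l2, where the nearest Control array read 1.61, and −2.34 for Nqo1, where the nearest read −2.90. Control array 1 read 5.29 for Prdx1, where the nearest read 5.58.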

How the results depend on the processing

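No gene of the 9 passed against Control with DEHP, MEHP or TOTM, or in TOTM or EHO against DEHP, under any alternative. For EHO against Control the count of 0 became 1 with median scaling (Prdx1) and 1 with every probe (Txnrd1). It became 3 with the percentile over probes above background on all arrays (Nqo1, Sod2 and Txnrd1, all lower). That percentile was taken without marked spots, which include most of the brightest Control spots. The count was 2 with no filter (Gclc lower and Gclm higher), though neither probe was well above background on any array. It was 0 to 1 with 1 array left out (Nqo1, without EHO array 4). For EHO against TOTM the count of 1 became 0 with quantile normalization, the filter on all 20 arrays, the 2 groups alone, the trended variance, without MEHP arrays 3 and 4 and without EHO arrays 1 and 2. It became 2 with the other percentile, every probe, array weights, and without Control array 2 and MEHP array 3, and was 0 to 2 with 1 array left out. Under normexp and under median scaling the count was 1, but the gene was Prdx1 or Nfe2l2. Array weights gave 1 for MEHP against DEHP (Nfe2l2), 2 for TOTM against MEHP (Nfe2l2 and Prdx1) and 1 for EHO against MEHP (Nqo1). Txnrd1 in EHO against TOTM reversed to −0.97 with every probe, since the plus-strand probe then decided it. The cause of the other changes was not tested.

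The replicate numbers were not treated as pairs, since in no comparison did all 4 same-numbered pairs have deviations correlated over 0.1 (−0.763 to 0.422). With 4 arrays in a group, such correlations cannot exclude a link by replicate number. With the replicate number as a block the counts of genes passing were 0, and 1 for EHO against TOTM, as without it. Signals near background limit Nqo1, Sod2, Gclc and Gclm. Over all genes the count for EHO against Control ranged from 3 with those 2 groups alone to 13006.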

Other observations

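Ftl1, which encodes the ferritin light chain, passed against Control in all 4 compounds when spots marked as non-uniform were kept, with differences of 1.25 in DEHP, 1.44 in MEHP, 1.28 in TOTM and 1.50 in EHO. All 4 of its Control spots on that probe carried the mark. The 5 Ftl1 probes differ in sign, with 2 higher and 3 lower in DEHP, 3 and 2 in MEHP, 2 and 3 in TOTM, and 3 and 2 in EHO, over a range of −0.33 to 1.50.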
